A study of Mus musculus with 6 samples.

Results

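Interferon-stimulated genes were examined in hearts of young and old mice, as 32 named effectors, sensors, regulators and transcription factors of the interferon response. Members were taken by gene symbol from the table of gene counts, which held 30 of the 32 among 18005 listed genes. Mx1 and Mx2 were not analysed here. All 30 passed the filter on low counts and were tested within the fit of 12893 genes. RNA was sequenced from 3 hearts labelled young (young 1 to 3) and 3 labelled old (old 1 to 3), each group labelled WT and untreated. The labels give neither age in months, strain nor sex, and the number in each title was taken to name a separate mouse; if they were not separate animals, the p-values measure only technical spread. By its title the series concerns pathological enlargement of the ageing heart. Library totals ran from 11295280 to 12514005 counts, so that 1 count was worth between 0.0774 and 0.0885 CPM (counts scaled to a common library size). Cardiomyocyte markers such as Myh6, Tnnt2 and Tnni3 were among the expressed genes of every library, with a summed level of 7 markers between 53762 and 72088 CPM.

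Interferons are secreted when cells sense foreign or misplaced nucleic acid, and they act through surface receptors and JAK kinases. Type I interferon assembles the ISGF3 complex, of which STAT2 and IRF9 are part and which binds the interferon-stimulated response element (ISRE) in promoters of its target genes. Interferon gamma acts through the gamma-activated site (GAS). Even without infection a low tonic signal keeps many of these genes expressed in tissues. In RNA of whole hearts, fewer cells of a type and less RNA per cell cannot be told apart.

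Promoter stretches of some of the members that hold an ISRE match are shown first, since the ISRE is the element through which type I interferon reaches its target genes. Of the 32 members, 24 had promoter windows in the RefSeq table of the GRCm38.p6 build, each covering 250 bases before to 50 bases after an annotated start. The ISRE core was searched as GAAA, any 2 bases and GAAA on both strands (TTTC, any 2 bases and TTTC when read on the other strand) and the GAS as TTCNNNGAA, which reads the same on both strands. Matches were allowed to overlap, among themselves and between the motifs. Ifit2, Irf9, Ifi44 and Xaf1, lower in old hearts, held no ISRE match in these windows and are not printed. Printed here, 5′ to 3′ in the direction of transcription and with ISRE matches in capitals, are upstream stretches of 5 members that were lower in old hearts (Rsad2, Gbp2, Gbp7, Ifit3 and Ifit3b) and 2 that did not pass the test (Ifit1 and Isg15), so that they can be compared.
Rsad2: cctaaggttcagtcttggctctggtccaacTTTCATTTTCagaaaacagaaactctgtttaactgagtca
Gbp2: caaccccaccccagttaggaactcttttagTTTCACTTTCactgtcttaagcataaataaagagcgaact
Gbp7: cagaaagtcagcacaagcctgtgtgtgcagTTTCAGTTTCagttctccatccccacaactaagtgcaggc
Ifit3: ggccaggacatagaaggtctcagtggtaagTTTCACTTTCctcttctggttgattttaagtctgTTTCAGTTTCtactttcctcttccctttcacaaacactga
Ifit3b: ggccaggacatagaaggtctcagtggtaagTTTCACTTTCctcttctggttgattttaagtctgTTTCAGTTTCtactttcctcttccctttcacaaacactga
Ifit1: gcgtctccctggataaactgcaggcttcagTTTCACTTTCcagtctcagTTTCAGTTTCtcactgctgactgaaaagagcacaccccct
Isg15: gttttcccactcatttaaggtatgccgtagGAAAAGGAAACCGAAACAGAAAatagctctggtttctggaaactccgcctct

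In GRCm38.p6 the Rsad2 stretch lies at chr12:26456533-26456602 on the minus strand, and the Gbp2 and Gbp7 stretches at chr3:142620574-142620643 and chr3:142530253-142530322 on the plus strand. Those of Ifit3, Ifit3b and Ifit1 lie at chr19:34583343-34583446, chr19:34607739-34607842 and chr19:34640755-34640843 on the plus strand, and that of Isg15 at chr4:156200845-156200926 on the minus strand. All 104 bases printed for Ifit3 and Ifit3b were the same. Ifit1 holds the same pair of ISRE letters, TTTCACTTTC and TTTCAGTTTC, closer to each other. In Isg15 3 matches overlap in a single run. Over all 24 members with a window, 14 (58.3%) held an ISRE core, against 3.99% of the 27025 symbols in the table, and 7 (29.2%) held a GAS, against 9.55%.

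Old hearts had lower levels of about 1 in 3 members and higher levels of none. Of the 30 members tested, 10 were called lower in old hearts (33.3%) by edgeR's quasi-likelihood test at an adjusted p under 0.05, and 0 were called higher, with 12 at an unadjusted p under 0.05. Over all 12893 genes tested, 22.0% were called, 10.6% lower and 11.4% higher. The 10 lower members were Rsad2, Ifit2, Ifit3, Ifit3b, Gbp2, Gbp7, Irf9, Parp14, Ifi44 and Xaf1. DESeq2 called 8 lower and limma-voom 10, and neither called a member higher. The median log2 fold change (old over young, negative where old is lower) was -0.28 over the members and -0.0065 over all genes tested. In 11 members every old library lay below every young library, whereas 0 lay wholly above. Of all genes tested, 20.3% lay wholly below and 19.6% wholly above. Without young 2, 5 members were called lower and 1 higher (Ifi27l2a), and the median was -0.14. Without young 3, 6 were called lower. Without old 2 the median was -0.165, and without old 3, 3 members were called higher (Ifi27l2a, Irf8 and Oas2).

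**Figure D1:**
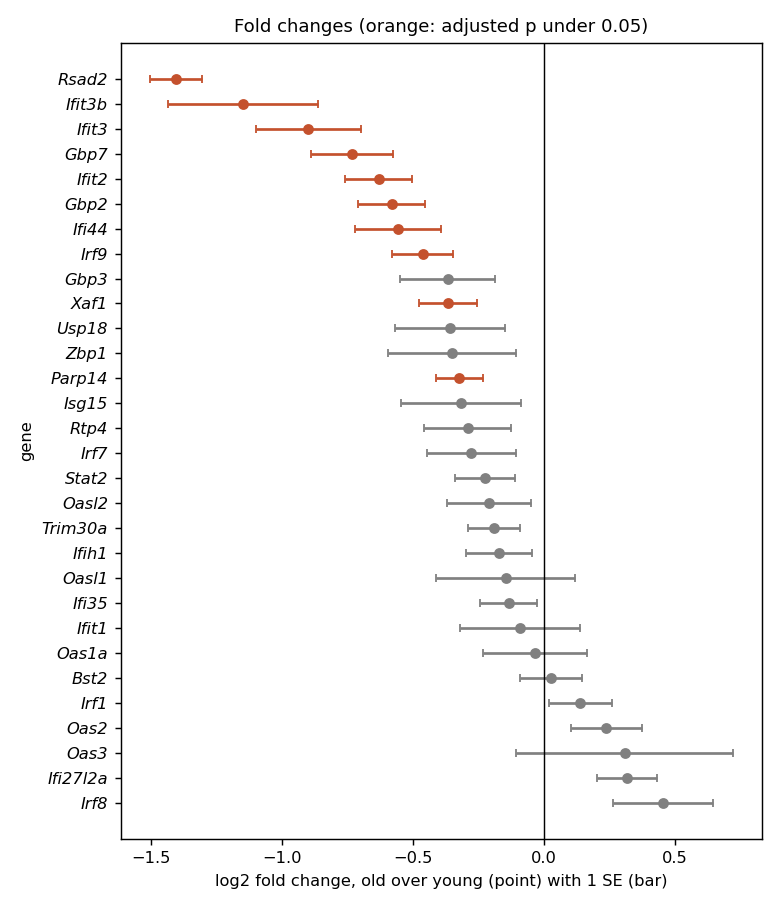
Log2 fold change of each of the 30 members, old over young, as points with bars of 1 standard error from edgeR; orange marks an adjusted p under 0.05. Rsad2 stands at -1.40 and Irf8, at the other end, at 0.45; all 10 orange points lie below 0.

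The effectors held 9 of the 10 lower members, out of 21 tested (42.9%, against 10.6% of all genes tested). Rsad2 encodes viperin, a radical enzyme that makes a chain-terminating nucleotide against viral replication. Its level was 40.0, 46.8 and 39.2 CPM in the young libraries and 16.6, 16.1 and 14.9 CPM in the old ones. The highest old library was thus below the lowest young one by a wide margin, and the old hearts were tightly grouped. The mean fell from 42.0 ± 4.21 to 15.8 ± 0.848 CPM (SD, n = 3), 2.65-fold lower in old hearts (log2 fold change -1.40 ± 0.10 SE, edgeR adjusted p = 5.6e-06). It stayed called in each fit that left out 1 library (log2 fold change -1.45 to -1.32).

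The Ifit genes, listed among the effectors, gave 3 calls out of 4. Ifit2 had 17.6, 21.3 and 17.5 CPM in young and 13.5, 10.5 and 12.3 CPM in the old (-0.63 ± 0.13, edgeR adjusted p = 0.0048). Ifit3 had 16.0, 21 and 16.3 CPM in young and 12.9, 6.57 and 9.01 CPM in the old (-0.90 ± 0.20, edgeR adjusted p = 0.0085). In both genes all old libraries lay below all young ones, and old 2 was the lowest. Ifit3b had 4.92, 7.64 and 4.41 CPM in young and 3.63, 1.99 and 1.99 CPM in the old (-1.15 ± 0.29, edgeR adjusted p = 0.015). This call was lost without young 2, at -0.88 and an edgeR adjusted p = 0.0591. Ifit1 had 7.73, 10.4 and 8.59 CPM in young hearts and 12, 6.57 and 6.41 CPM in old ones. Its old libraries spanned the young range, with old 1 above and both old 2 and old 3 below every young heart, and the gene was not called (-0.091 ± 0.23, edgeR adjusted p = 0.80).

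Ifit3 and Ifit3b are near-identical copies, so reads could be placed on either. The longest protein-coding GENCODE M21 transcripts of this pair were 98.0% identical over 1697 aligned bases. Of the 50-base stretches of the Ifit3 transcript, 51.2% occurred in a transcript of Ifit3b, and 44.5% the other way round. With both counted as 1 gene the log2 fold change was -0.96 (edgeR adjusted p = 0.0066). No other pair compared within the Ifit, Oas, Oasl and Gbp members shared a 50-base stretch except Gbp3 and Gbp7, where 4.79% and 2.26% of stretches were shared.

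The ratio of Ifit3 to Ifit1 within single hearts, which does not depend on the scaling between libraries, was lower in each old heart than in any young one. There were 2.07, 2.03 and 1.89 Ifit3 counts per Ifit1 count in the young libraries and 1.07, 1.0 and 1.41 in the old ones. Rsad2 counts per Ifit1 count were 5.17, 4.52 and 4.56 in young and 1.38, 2.45 and 2.32 in old hearts. Neither ratio overlapped between the groups. The mean log2 ratio was lower in old hearts by a difference of -0.80 for Ifit3 over Ifit1 and of -1.26 for Rsad2 over Ifit1, each with an exact 2-sided permutation p = 0.1. This is the smallest p that 3 against 3 allows, and 0.125 after adjustment over the 5 ratios computed. The pairs were chosen after their values were seen.

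**Figure D2:**
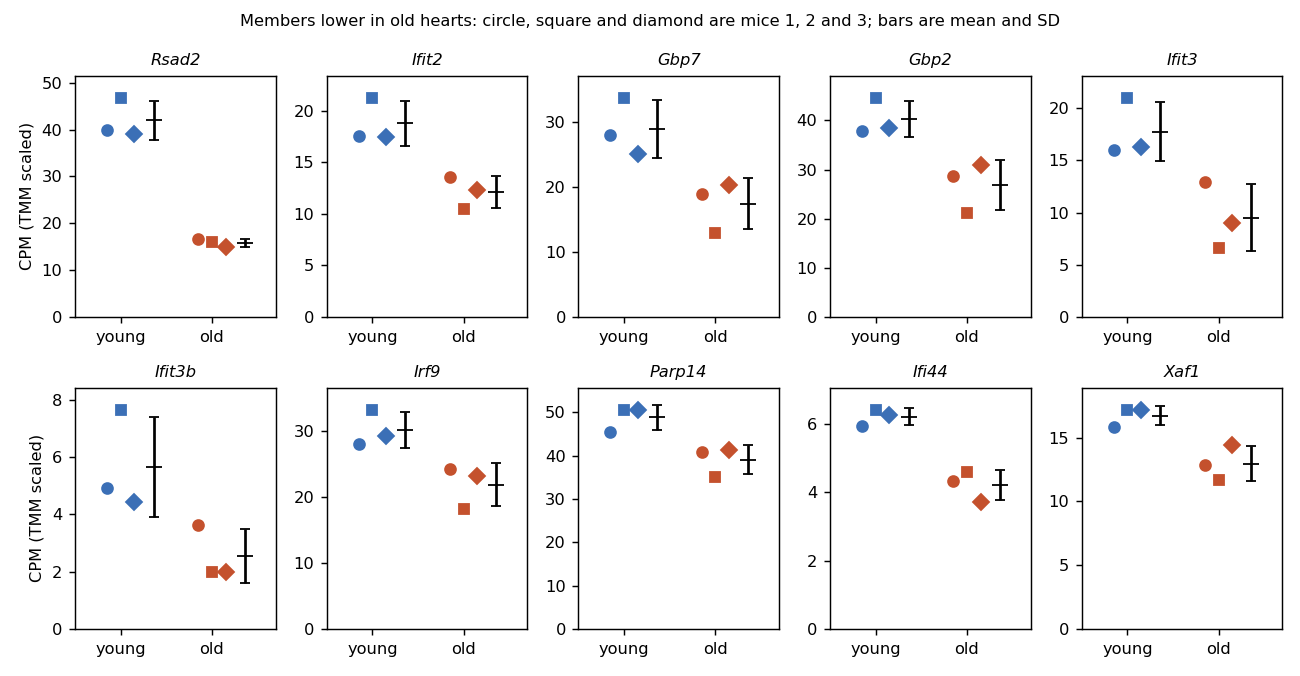
Level of the 10 members lower in old hearts, in TMM-scaled CPM from a baseline of 0; circles, squares and diamonds are mice 1, 2 and 3, and black bars are mean and SD. In each panel all 3 old hearts lie below all 3 young ones, with the widest gap for Rsad2 (14.9 to 16.6 against 39.2 to 46.8 CPM).

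Guanylate-binding proteins are large GTPases that respond strongly to interferon gamma and attack membranes around pathogens. Gbp2 had 37.9, 44.6 and 38.5 CPM in young and 28.7, 21.2 and 30.9 CPM in the old (-0.58 ± 0.13, edgeR adjusted p = 0.0083). Gbp7 had 28.0, 33.6 and 25.0 CPM in young and 18.9, 12.9 and 20.2 CPM in the old (-0.73 ± 0.16, edgeR adjusted p = 0.0072). Neither gene overlapped between the groups, and both were called whichever library was left out. Gbp3 had 16.2, 24.4 and 17.0 CPM in young and 14.9, 11.4 and 18.2 CPM in old hearts. Here old 3 lay within the young range, and the gene was not called (-0.37 ± 0.18, edgeR adjusted p = 0.17). In these 3 genes young 2 was the highest of the 6 libraries, old 2 was the lowest, and old 3 was the highest of the old ones. Gbp2 counts per Gbp3 count overlapped between the groups, at 1.83 to 2.34 in young and 1.7 to 1.93 in old hearts (2-sided exact permutation p = 0.3).

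Of the 5 oligoadenylate synthetase members, 0 were called in either direction, against 22.0% of all genes tested. A count of 5 genes is too small to set apart from that share. These enzymes and their relatives respond to double-stranded RNA, and the active ones make the messenger that switches on RNase L. Oas1a averaged 5.81 ± 1.18 CPM (young) and 5.68 ± 0.939 CPM (old; SD, n = 3), Oas2 15.6 ± 2.07 and 18.4 ± 2.84, and Oasl2 17.4 ± 1.61 and 15.05 ± 3.68. Oasl1 and Oas3 were at lower levels, with 3.0 ± 0.389 and 0.880 ± 0.397 CPM in young hearts. Oas3 had only 7 to 17 counts per library, so a change of its size (0.31 ± 0.41) was not detectable at this depth. All 5 were highest among the old hearts in old 1, and for 4 of them old 1 was also above every young heart. Of all 12893 genes tested, 4581 lay above every young heart in old 1. Oas2 was called higher without old 3, at 0.37 and an edgeR adjusted p = 0.0498.

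Among other effectors, Parp14, Ifi44 and Xaf1 were lower in old hearts by smaller amounts. Parp14, a mono-ADP-ribosyltransferase, had 45.4, 50.5 and 50.6 CPM in young and 40.8, 35.2 and 41.3 CPM in the old (-0.32 ± 0.09, edgeR adjusted p = 0.025). Ifi44 had 5.93, 6.41 and 6.27 CPM in young and 4.34, 4.58 and 3.73 CPM in the old (-0.56 ± 0.16, edgeR adjusted p = 0.031). Xaf1, which counters an inhibitor of cell death, had 15.9, 17.1 and 17.2 CPM in young and 12.8, 11.7 and 14.4 CPM in the old (-0.37 ± 0.11, edgeR adjusted p = 0.035). None of these 3 genes overlapped between the groups. Their calls were less firm. Parp14 was lost without young 2, young 3 or old 2 (edgeR adjusted p = 0.0675, 0.1 and 0.084). Ifi44 stayed called only without old 2 and Xaf1 only without old 3, and in the other fits with a library left out edgeR's adjusted p lay between 0.0693 and 0.0937 for Ifi44 and between 0.0719 and 0.119 for Xaf1. Both were also lost with DESeq2 (adjusted p = 0.101 and 0.0997).

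The other effectors did not pass the test. Isg15, the ubiquitin-like protein attached to other proteins in the interferon response, had 8.43, 16.5 and 10.99 CPM in young and 12, 7.69 and 9.10 CPM in the old (-0.31 ± 0.23, edgeR adjusted p = 0.35). Young 2 stood well above the other young hearts, and old 1 and old 3 lay inside the young range. Bst2 encodes tetherin, which holds budding virions at the cell surface; its mean was 46.9 ± 7.44 CPM for young and 47.8 ± 5.15 CPM for old hearts (SD, n = 3). Ifi27l2a had 29.7, 39.7 and 33.7 CPM in young and 47.9, 41.2 and 39.2 CPM in the old (0.32 ± 0.11, edgeR adjusted p = 0.068). It was called higher without young 2 (0.43, edgeR adjusted p = 0.0276) and without old 3 (0.39, edgeR adjusted p = 0.0358). Rtp4 stood at -0.29 ± 0.17 and Trim30a, of the tripartite motif family, at -0.19 ± 0.10 (edgeR adjusted p = 0.23 and 0.20). Trim30a had 15.3, 16.8 and 16.6 CPM in young and 14.3, 13.7 and 14.6 CPM in old hearts, and was the 11th member without overlap.

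Per length, the members covered a wide range of levels. By the deposited FPKM, the mean over the 6 libraries was highest for Bst2 (58.5), followed by Ifi27l2a (43.5), Ifi35 (15.3), Irf1 (15.05) and Isg15 (14.3). Of the lower members Gbp2 ranked 6th (13.8), Irf9 8th (9.71) and Rsad2 9th (7.73). In young hearts Rsad2 stood at 11.4 FPKM, close to Irf9 at 11.5, and in old hearts at 4.07. Ifi44 (1.83), Zbp1 (1.42), Oasl1 (1.26) and Oas3 (0.198) were the lowest.

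Neither sensor among the members was called, against 22.0% of all genes tested. Ifih1, which encodes the double-stranded RNA sensor MDA5, averaged 15.4 ± 1.14 CPM (young) and 13.6 ± 1.99 CPM (old; SD, n = 3), and Zbp1, which senses Z-form nucleic acids, averaged 3.43 ± 0.866 and 2.68 ± 0.447. Of the regulators, Usp18, which removes ISG15 and damps the type I receptor, had 6.58 ± 1.64 and 5.12 ± 0.712 CPM, and Ifi35 had 21.8 ± 2.45 and 19.9 ± 1.52 CPM. All 4 genes had fold changes below 0, within -0.36 and -0.13, and edgeR adjusted p between 0.24 and 0.41.

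Of the 5 transcription factors, 1 was called. Irf9, the DNA-binding subunit of ISGF3, had 28.0, 33.2 and 29.3 CPM in young and 24.3, 18.1 and 23.1 CPM in old hearts, without overlap (-0.46 ± 0.12, edgeR adjusted p = 0.016). The call was lost without young 2 (-0.39, edgeR adjusted p = 0.0599) and without young 3 (-0.48, edgeR adjusted p = 0.0533). Stat2, its partner, had 27.3, 29.9 and 26.6 CPM in young and 24.4, 19.9 and 27.4 CPM in old hearts, so that old 3 fell inside the young range (-0.22 ± 0.12, edgeR adjusted p = 0.19). Irf9 counts per Stat2 count were 1.02, 1.11 and 1.099 in young and 0.993, 0.913 and 0.845 in old hearts. Here 3 against 3 gives no p below that found (2-sided exact permutation p = 0.1, and 0.125 adjusted over the 5 ratios). This pair was chosen after its values were seen. Irf7, which amplifies type I interferon production, had 23.0, 34.5 and 25.9 CPM in young and 28.6, 18.7 and 21.4 CPM in the old (-0.28 ± 0.17, edgeR adjusted p = 0.27). Irf1 had 48.1 ± 1.19 CPM in young hearts and 50.7, 44.0 and 64.1 CPM in the old ones, of which old 3 stood well above the rest. Irf8, a factor of myeloid cells, had 13.0, 14.1 and 10.4 CPM in young and 23.1, 15.2 and 13.2 CPM in the old (0.45 ± 0.19, edgeR adjusted p = 0.11), and it was called higher without old 3 (0.62, edgeR adjusted p = 0.024).

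Within each age group the members shared a pattern over single libraries. Among the young hearts young 2 was the highest for 24 of the 30 members (80%), against 35.2% of all genes tested, and it was the lowest for 0. Among the old hearts old 1 was the highest for 19 (63.3%, against 30% of all genes) and old 2 the lowest for 21 (70.0%, against 35.2%). Over the 6 libraries, the highest value lay in young 2 for 19 members and in old 1 for 7. The lowest lay in old 2 for 18. These shares describe 30 genes measured in the same 6 libraries, which are not independent of each other.

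As a deviation in log2 CPM from the mean of the young hearts, the member median was -0.088, 0.17 and -0.075 in young 1, 2 and 3. It was -0.12, -0.48 and -0.24 in old 1, 2 and 3. The same medians over all genes tested stayed between -0.0062 and 0.0067. The 10 called members were below every young library in each old library, with medians of -0.48, -0.88 and -0.55 in old 1, 2 and 3. The 20 members not called had 0.058, -0.34 and -0.096, a median over genes that went both ways. In old 1, 8 of the 20 lay above every young library and 3 below every one. In old 2, 3 lay above and 12 below. Of all 12893 genes tested, 4581 lay above and 4798 below every young library in old 1. The counts in old 2 were 4478 and 4800.

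**Figure D3:**
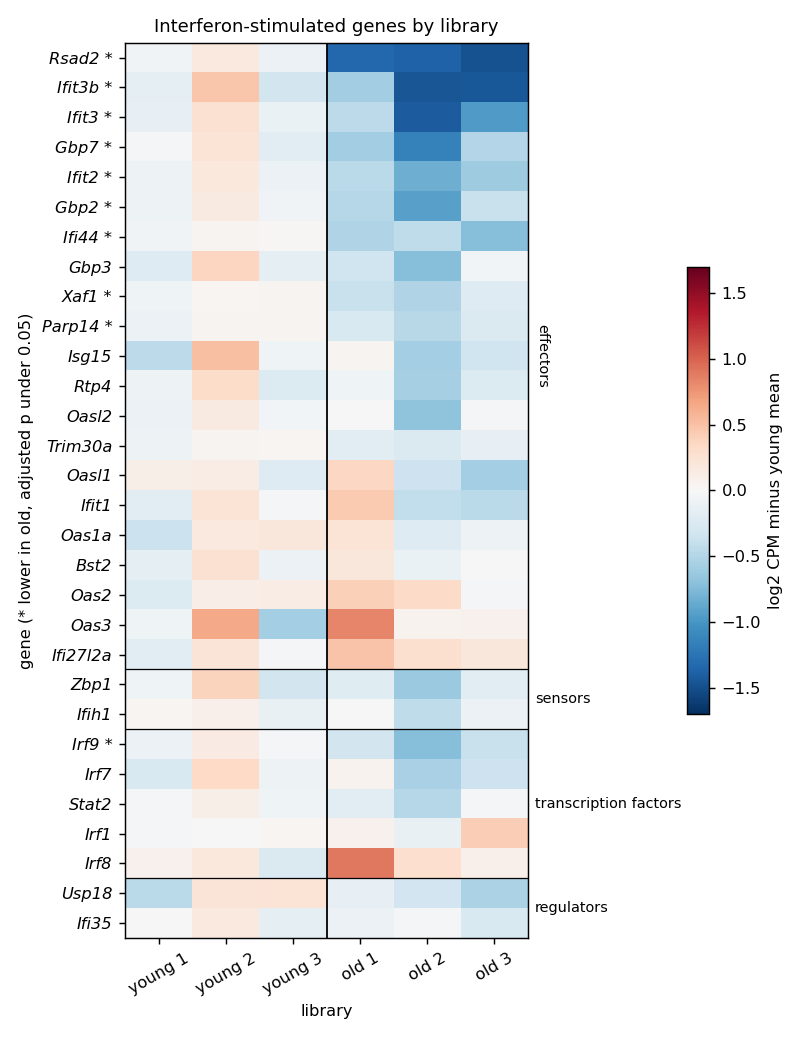
Log2 CPM of each of the 30 members in each library minus the mean of the 3 young libraries, grouped by role and ordered by fold change; asterisks mark an edgeR adjusted p under 0.05. The young 2 column is mostly above 0, the old 2 column mostly below, and the old 1 column divides into lower members at the top and higher ones such as Irf8, Oas3 and Ifi27l2a.

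Families differed in which old heart was the highest. All 4 Ifit and all 5 Oas and Oasl members were highest among the old hearts in old 1, and all 3 Gbp members in old 3. The Gbp medians were -0.49, -0.92 and -0.38 in old 1, 2 and 3, the Ifit medians -0.45, -1.13 and -0.78, and the Oas and Oasl medians 0.35, -0.22 and -0.033. The Ifit medians count the near-identical copies Ifit3 and Ifit3b as separate genes. The 5 IRF and STAT factors had 0.063, -0.49 and -0.027. Old 2 thus had the lowest median in each of these 4 families. This grouping was made after the values were seen.

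**Figure D4:**
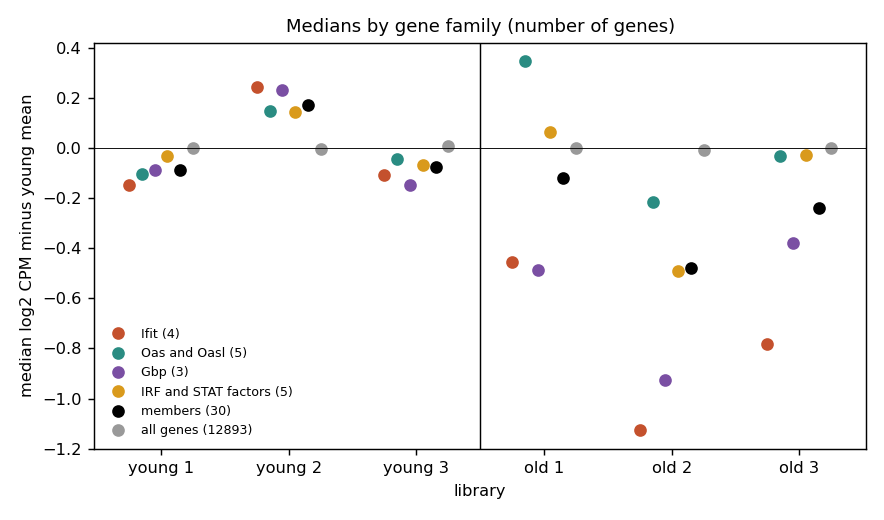
Median over each gene family of log2 CPM minus the young mean, for each of the 6 libraries. Numbers in brackets are genes, with the copies Ifit3 and Ifit3b counted separately. Young 2 is the highest young library for the families and old 2 the lowest old one (-1.13 for Ifit and -0.92 for Gbp), while the medians over all genes stay between -0.0062 and 0.0067.

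Some sums of blood and immune cell markers were also highest in young 2, and others were not. The 4 globin genes summed to 2081, 15486 and 8358 CPM in young 1, 2 and 3 and to between 3087 and 6566 CPM in the old libraries. The sums of 10 T and NK cell markers were 6.25, 12.5 and 6.42 CPM, and those of 5 neutrophil markers were 12, 17.7 and 9.37 CPM, in young 1, 2 and 3. The old hearts had 6.85 to 9.74 CPM of the former and 8.73 to 10.5 CPM of the latter. The sum of 5 B cell markers was highest in old 3 (14.5 CPM, against 10.2 in young 2), and that of 6 monocyte markers was lowest in young 2 (132 CPM, against 137 to 175 in the other 5 libraries). In old 1, where many members were highest among the old hearts, macrophage markers (12 genes) and leukocyte markers (6 genes) were at their highest too, at 1281 and 197 CPM. Young hearts had 943 to 1044 and 153 to 180 CPM. Old 2, where many members were lowest, had 1138 and 165 CPM, and old 3 had 1012 and 164 CPM. The macrophage sum of old 2 was thus above that of every young heart. The part of these cell types in the member levels was not tested. The 5 members called without young 2 were Rsad2, Ifit2, Ifit3, Gbp2 and Gbp7, and these were also called in each of the other 5 fits with a library left out.

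Marker genes of other cell types were called in both directions, against 10.6% of all genes called lower and 11.4% higher. Of the 6 leukocyte markers 1 was lower (16.7%) and 0 higher in old hearts; the lower one was Ptprc, the pan-leukocyte phosphatase CD45 (-0.46 ± 0.15, edgeR adjusted p = 0.045), chosen after its value was seen. Of the fits that left out 1 library, the one without old 1 kept this call, and edgeR's adjusted p lay between 0.0509 and 0.152 in the other 5. The Ptprc call was also lost with the replicate block (edgeR adjusted p = 0.0626) and with DESeq2 (adjusted p = 0.068). Of 12 macrophage markers 3 were higher and 1 lower, the latter being the fractalkine receptor gene Cx3cr1 (-2.15 ± 0.18, edgeR adjusted p = 1.7e-05; -1.39 on the log2 scale of FPKM plus 1). Of 4 T and NK cell markers tested, the T cell receptor complex genes Cd3e and Cd3g were higher (1.59 ± 0.45 and 1.83 ± 0.40, edgeR adjusted p = 0.027 and 0.0081) and the granzyme gene Gzma lower (-2.80 ± 0.66, edgeR adjusted p = 0.011), each at under 4 CPM in every library. Of 7 mural cell markers 1 was lower, Pdgfrb (-0.69 ± 0.11, edgeR adjusted p = 0.001), and 2 were higher. Of 9 endothelial markers 2 were lower (22.2%) and 0 higher, with 8 of the 9 fold changes below 0, and their sum was 1923 to 2142 CPM in young and 1552 to 2002 CPM in old hearts. Sums of leukocyte, macrophage, monocyte, dendritic cell, T and NK cell, B cell, neutrophil, endothelial, fibroblast and mural cell markers overlapped between the groups. The cardiomyocyte sum did not, at 53762 to 56952 CPM in young and 66244 to 72088 CPM in old hearts. Of its 7 markers 2 were called higher (28.6%), Actc1 and Tnni3, and 0 lower. Actc1 alone averaged 8207 CPM in young and 17339 CPM in old hearts. Tnnt2 lay wholly higher in old hearts but was not called, and Myh6, Ryr2, Pln and Mb overlapped between the groups. No marker was at 0 in every library.

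Upstream of the members, the receptor and signalling genes went both ways. Of 28 genes listed as ligands, receptors and signal transduction, 20 were in the table and 19 were tested. Of these, 4 were lower and 3 higher in old hearts (21.1% and 15.8%, against 10.6% and 11.4% of all genes tested). The median log2 fold change was -0.12. Among the 28 listed, Ifng had at most 1 count in a library, and the other 8 interferon genes named were not analysed here. Ifnlr1, a chain of the lambda receptor, averaged 5.51 ± 0.345 CPM in young against 2.90 ± 0.294 in old hearts (SD, n = 3; -0.92 ± 0.18, edgeR adjusted p = 0.0044). The higher genes included Socs3, a feedback inhibitor of cytokine receptors (1.79 ± 0.27, edgeR adjusted p = 0.00085), and Stat3 (0.44 ± 0.08, edgeR adjusted p = 0.0031), which serve other cytokines as well. Socs3 stood at 22.1, 20.5 and 45.8 CPM in old 1, 2 and 3. Irf3, the factor activated directly by nucleic acid sensing, was at 32.2 ± 2.44 and 34.2 ± 2.63 CPM (edgeR adjusted p = 0.54).

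Nucleic acid sensors and their adaptors were mostly not called. Of 24 tested, 3 were lower (12.5%, near the 10.6% of all genes called lower) and 0 higher (against 11.4% of all genes). The median log2 fold change was 0.056. Trim25, a ubiquitin ligase that helps the sensor RIG-I signal, had 53.2, 49.3 and 55.3 CPM in young and 39.8, 32.9 and 34.5 CPM in the old (-0.56 ± 0.09, edgeR adjusted p = 0.0015). Samhd1, which breaks down deoxynucleotides, was at -0.35 ± 0.09 (edgeR adjusted p = 0.02) and Tlr9, an endosomal DNA receptor, at -0.99 ± 0.28 (edgeR adjusted p = 0.029). The count of 3 was 1 without young 2, young 3 or old 2, where Samhd1 was lost with edgeR adjusted p between 0.0533 and 0.0681. The Tlr9 call was kept without old 1 and lost in the other 5 such fits, at between 0.0639 and 0.101, and with DESeq2 (adjusted p = 0.0827). On the log2 scale of FPKM plus 1 the Tlr9 change was -0.35.

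Of 67 further interferon-stimulated genes tested, 19 were lower and 8 higher in old hearts (28.4% and 11.9%). Over all genes tested the shares were 10.6% and 11.4%. The median log2 fold change of these 67 was -0.24. Gbp5 was lower at -1.21 ± 0.13 (edgeR adjusted p = 8.3e-05), with 17.2, 17.1 and 17.8 CPM in young and 8.06, 6.14 and 8.32 CPM in old hearts. Dtx3l, a ubiquitin ligase that partners Parp9, was lower at -0.59 ± 0.10 (edgeR adjusted p = 0.0019). Ifi30, a lysosomal thiol reductase of antigen processing, was higher at 1.04 ± 0.11 (edgeR adjusted p = 8e-05), with 8.43, 10.02 and 9.21 CPM in young and 19.3, 19.7 and 17.9 CPM in old hearts. Ifi207 was higher at 0.72 ± 0.11 (edgeR adjusted p = 0.00083). These 4 genes were called whichever library was left out. The higher count was 4 without young 1, 5 without young 3 or without old 1, and 4 on FPKM values.

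That list held 12 other genes of the interferon-inducible GTPase families, grouped after their values were seen. Of the 11 tested, 8 were lower in old hearts (Gbp4, Gbp5, Gbp6, Gbp9, Ifi47, Irgm1, Irgm2 and Tgtp2) and 0 higher. Over all genes tested, 10.6% were called lower and 11.4% higher. Transcripts of these 12 genes were not compared, so whether the counting divided reads among them was not tested. Igtp (-0.43 ± 0.26), Iigp1 (-0.44 ± 0.25) and Tgtp1 (-0.57 ± 0.29) overlapped between the groups and were not called (edgeR adjusted p = 0.26, 0.24 and 0.17), and Gbp8 was too low to be tested. Gbp4 had 31.9, 46.6 and 34.3 CPM in young and 14.96, 8.21 and 21.9 CPM in the old (-1.32 ± 0.25, edgeR adjusted p = 0.0037). Gbp9 stood at -0.72 ± 0.13 and Gbp6 at -0.64 ± 0.16, the latter at -0.40 without young 2. Irgm1 and Irgm2, immunity-related GTPases, stood at -0.57 ± 0.13 and -0.78 ± 0.18. Leaving out any 1 of the 6 libraries kept the calls of Gbp4, Gbp6, Gbp9, Irgm1 and Irgm2. Cmpk2, a nucleotide kinase gene that neighbours Rsad2, had 17.7, 18.3 and 17.5 CPM in young and 14.0, 7.43 and 9.97 CPM in the old (-0.77 ± 0.18, edgeR adjusted p = 0.0096). Rsad2 counts per Cmpk2 count were 2.26, 2.56 and 2.24 in young and 1.18, 2.16 and 1.496 in old hearts, so the groups did not overlap. The 2-sided exact permutation p = 0.1 was as low as it can go, and 0.125 after adjustment over the 5 ratios. This pair, too, was chosen after its values were seen.

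The printed elements did not separate the lower members from the rest. An ISRE core was found for 5 of the 9 lower members with a promoter window (55.6%) and for 9 of the 15 members not called (60.0%). A GAS was found for 2 of 9 and 5 of 15. Of the lower members, Rsad2, Gbp2, Gbp7, Ifit3 and Ifit3b held an ISRE core, and Ifit2, Irf9, Ifi44 and Xaf1 did not within these windows. Ifit1, with the same element letters as Ifit3, and Isg15 with its 3 overlapping matches belong to the members not called. A match is a run of letters in the reference and was not measured as binding.

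**Figure D5:**
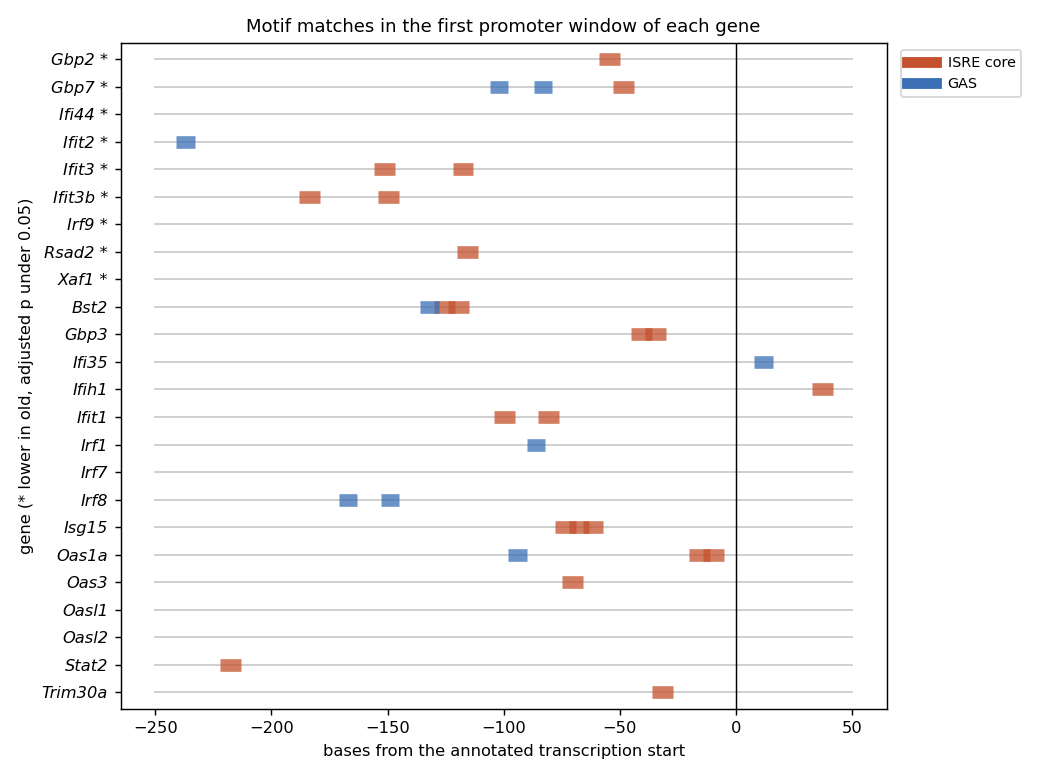
Position of ISRE core and GAS matches in the first promoter window of each of the 24 members with one, in bases from the annotated start (0, upstream to the left); asterisks mark members lower in old hearts. ISRE core matches occur in 5 of the 9 marked rows, and over all rows they run from base -222 in Stat2 to base 42 in Ifih1.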

How the data were processed

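Whole-heart RNA of 3 young and 3 old mice was sequenced from stranded mRNA libraries, per the labels' protocols. The authors deposited raw counts per gene and FPKM values made from the same counts; dividing one by the other gave 1 length per gene. The submitters' processing notes name GRCm39 as the build, and DESeq, StringTie, Cufflinks, HTSeq, Bowtie2, HISAT2 and Trimmomatic as tools. Their versions and roles, and whether counting used strand, are not stated there, so reads of overlapping antisense genes may be mixed. All 12 per-sample files equalled the tables. The test was that of edgeR 4.0.16, run in R 4.3.3 (filterByExpr, TMM, quasi-likelihood F test, Benjamini-Hochberg adjustment over 12893 genes, called under 0.05). Standard errors came from the fold change and F statistic. CPM are TMM scaled. Library log2 values used a prior count of 0.5. Replicates differed beyond sampling noise (chi-square per degree of freedom 7.9 to 16.7).

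Members and lists were chosen with earlier results of these data known. All members are named; from each pathway list the 4 called genes of smallest p are, with Irf3, and others are said to be chosen after seeing values. A gene that this rule names is not reported here. Lists are described by counts, without a set test. Alternatives were other scalings and filters, a replicate block, limma-voom (limma 3.58.1), DESeq2 1.42.0, limma on log2 of FPKM plus 1 or 0.1, summed Ifit3 copies and each library left out. On simulated counts for old against young (12798 genes) the test recovered 69.4% of genes changed 1.5-fold and 98% of those changed 2-fold. A planned comparison of protein sequences was replaced by one of GENCODE transcripts with Biopython 1.88. RefSeq and GENCODE M21 tables use an older build (GRCm38) than the counts, and only the tables' own coordinates are given.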

Additional observations from a re-analysis of the deposited data

How the results depend on the processing

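The 10 lower members were also called with RLE, upper-quartile and library-size scaling, without a filter, with a filter of 1 CPM, with the replicate block, with limma-voom and on both FPKM scales; DESeq2 called 8, and summing Ifit3 with Ifit3b left 9 of 29. With a library left out the lower count ran from 5 to 9 and the higher count from 0 to 3. The replicate numbers were not taken to pair the mice, and 3 libraries a group cannot settle whether they do. Deviations of same-numbered libraries correlated at 0.079, 0.084 and 0.0051, and those of differently numbered ones at between -0.14 and 0.061. Young 3 correlated best with old 2 (0.054). The block (2734 genes called in all) changed no member's call. Over all genes 2835 were called, 1467 higher and 1368 lower; with a library left out the total ran from 1552 (without young 3; 1557 without young 1) to 3041, the higher from 850 to 1597 and the lower from 682 to 1444. Higher genes numbered 967 and 977 on FPKM with pseudocounts of 1 and 0.1, and lower genes 2122 with library size alone. The share of calls higher in old hearts was 51.7% with TMM scaling but 32.7% with library size, 40.2% with upper-quartile factors and 34.8% and 35.1% on FPKM; these scalings moved the median of all genes to between -0.087 and -0.053, and that of the members to between -0.36 and -0.28.

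Of the further interferon-stimulated genes 8 rose, 4 on either FPKM scale and from 4 to 9 with a library left out. In the sensor list 3 were lower, 4 on either FPKM scale and from 1 to 3 with a library left out, and the higher count ran from 0 to 1. Genes that reversed were near 0 and not called: Bst2 (-0.018 with upper-quartile factors, -0.049 with library size, -0.047 on both FPKM scales), and with a library left out Bst2 from -0.051 to 0.16, Ifit1 from -0.44 to 0.076, Oas1a from -0.20 to 0.072, Oasl1 from -0.46 to 0.042 and Irf1 from -0.013 to 0.26. Over 52 named genes and their 882 refits, 814 kept direction and side of the threshold, 48 lost and 4 gained a call, and 16 reversed; the cause was not tested. With 3 mice a group and under 20 counts for Oas3, small changes of low members were not detectable.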

Other observations

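The p200 family of interferon-inducible DNA-binding proteins did not follow the guanylate-binding proteins. Among 6 p200 genes in the list of further interferon-stimulated genes, 3 were higher in old hearts by edgeR and 0 lower. Of all genes tested, 11.4% were called higher and 10.6% lower. Ifi207 had 15.4, 18.4 and 15.9 CPM in young and 27.0, 30.2 and 24.7 CPM in old hearts (0.72 ± 0.11 SE, edgeR adjusted p = 0.00083). Ifi204 stood at 0.56 ± 0.15 (edgeR adjusted p = 0.023) and Ifi211 at 0.54 ± 0.18 (edgeR adjusted p = 0.048). Both calls were fragile: Ifi204 was lost without young 1 (0.60), young 3 (0.49) or old 1 (0.42) and on FPKM values, and Ifi211 in 4 of 6 fits with a library left out, without young 1 (0.40), young 3 (0.53), old 1 (0.61) or old 3 (0.38), with library-size and upper-quartile scaling, with DESeq2 and on FPKM values. Ifi203 (-0.15 ± 0.09), Ifi213 (-0.17 ± 0.22) and Mndal (-0.10 ± 0.10) did not pass. These genes are close relatives, so the counting may have divided reads among them. The family was singled out after its values were seen.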
